A study of Mus musculus with 20 samples.

Results

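The genes described here are 5 that set how brain cells hear corticosterone, the main glucocorticoid of mice: the receptor genes Nr3c1 and Nr3c2, the chaperone genes Hsp90ab1 and Fkbp4, and the enzyme gene Hsd11b1. They were chosen by name, with earlier results of these data known, and all 5 were among the 12988 genes of the count table. Nr3c1 encodes the glucocorticoid receptor and Nr3c2 the mineralocorticoid receptor, which in most of the forebrain binds corticosterone with the higher affinity of the pair. Without hormone the receptors sit in the cytoplasm in a complex built on the chaperone HSP90, whose constitutive cytosolic form is encoded by Hsp90ab1. Fkbp4 encodes FKBP52, a co-chaperone that favours hormone binding and passage of the receptor to the nucleus, and its relative FKBP5 (FKBP51) opposes it. Hsd11b1 encodes 11-beta-hydroxysteroid dehydrogenase type 1, which regenerates corticosterone from inert 11-dehydrocorticosterone inside cells.

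RNA came from the anterodorsal part of a forebrain nucleus, the bed nucleus of the stria terminalis, which belongs to the extended amygdala, is rich in GABAergic neurons and takes part in responses to threat. The 4 groups were female control, female stressed, male control and male stressed mice, with 15 mice and 5 libraries in each. Mice were 7 to 9 weeks old when assigned, tissue was taken under ketamine anaesthesia, and no strain, genotype or transgene is named in the labels. Stressed mice went through 6 weeks of chronic variable mild stress, a changing schedule of minor stressors, and were sampled 1 hour after the last one, which was wet bedding. Each library holds the pooled tissue of 3 mice, so the spread between libraries averages over animals. Library totals ran from 2707881 counts (female control 4) to 33595388 (male stressed 4). Female stressed 2 stood apart with the highest scores of all 20 libraries for thalamic and for cortical and hippocampal marker genes (0.460 and 0.719 in mean log2 CPM about the mean of the libraries), and its values are given separately where they move a result. All 15 marker genes of GABAergic and bed nucleus neurons were measured. They summed to 2956 to 3444 CPM (counts scaled by library size, after TMM) in single libraries. Group means were 1092 to 1161 CPM for Gad2, but 16.6 to 24.4 CPM for Crh and 18.6 to 23.2 CPM for Cartpt. Slc17a7, the glutamate transporter gene of cortical neurons, averaged 2.89 to 3.16 CPM. The 7 measured cortical and hippocampal markers together held 421 to 540 CPM in single libraries. Female stressed 2, highest by score, held 488 CPM of them, inside this range. Its summed thalamic markers, 737 CPM, were the highest of all libraries.

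No member differed between any groups at an adjusted p under 0.05 (edgeR quasi-likelihood test, Benjamini-Hochberg over all genes). The count was 0 of 5 for each of the 6 comparisons, namely the effect of stress within females and within males, male minus female among controls and among stressed mice, the interaction of sex and stress, and stress averaged over the sexes. Over all genes, 0%, 0.0077%, 0.747%, 0.077%, 0% and 0% were called in these comparisons, in that order. DESeq2 also called 0 members, though it gave no adjusted p for 1 of them in the male stress comparison. Of the 30 tests of a member, 2 had an unadjusted p under 0.05 with edgeR, and these were Fkbp4 for sex in controls and Nr3c1 for sex in stressed mice. DESeq2 likewise had 1 member under 0.05 in each of those comparisons and 0 in the others. Over all genes the edgeR shares at an unadjusted p under 0.05 were 7.51%, 15.5%, 15.3%, 7.06%, 10.4% and 12.7%, in the order above. For none of the 5 genes did the ranges of any pair of groups separate completely. The share of all genes whose ranges separate was not computed. A difference in such tissue RNA cannot be assigned: fewer cells of a type and less RNA per cell cannot be told apart.

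**Figure D1:**
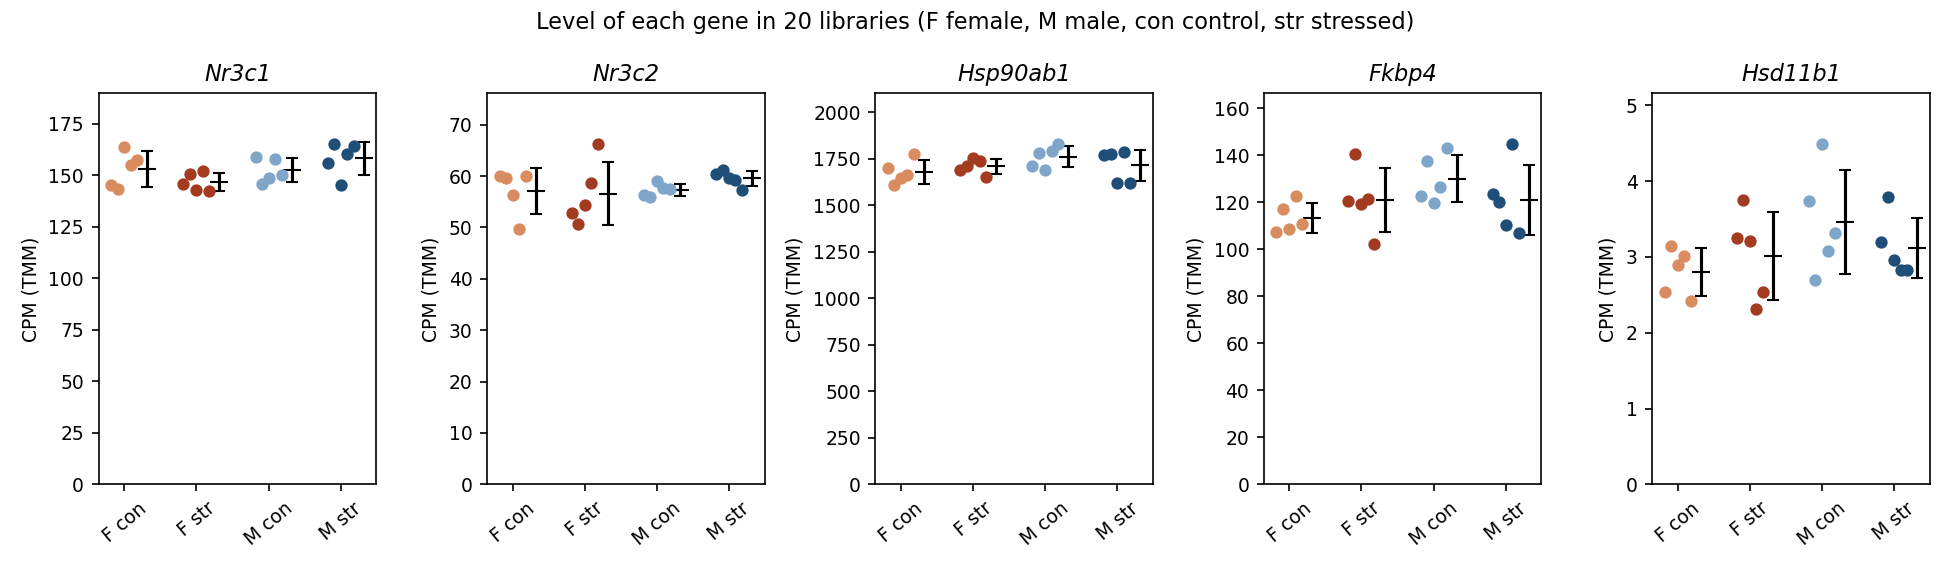
Points are single libraries, 5 per group, on an axis of CPM that starts at 0; the dash and bar beside them are the mean and SD. Within each gene the 4 groups overlap, from Hsp90ab1, at 1608 to 1828 CPM, to Hsd11b1 between 2.31 and 4.48 CPM.

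Levels of different genes were compared per kilobase of exon (GENCODE M21), since longer transcripts collect more counts. Hsp90ab1 averaged 572 CPM per kb, Fkbp4 43.4, Nr3c1 19.9, Nr3c2 8.90 and Hsd11b1 0.729 over the 20 libraries. This order held in every library, and no neighbours in it overlapped. By mean log2 CPM, not corrected for length, Hsp90ab1 stood above 99.9% of all measured genes, Nr3c1 above 88.2%, Fkbp4 above 84.1%, Nr3c2 above 65.6% and Hsd11b1 above 1.36%. The spread over the 20 libraries followed a different order. The coefficient of variation of the CPM was 3.84% for Hsp90ab1, 4.97% for Nr3c1, 6.53% for Nr3c2, 10.1% for Fkbp4 and 17.2% for Hsd11b1. Each SD in log2 CPM was ranked among up to 250 genes on either side by level. That of Fkbp4 exceeded 80.8% of 500 such genes, and that of Hsp90ab1, near the top of the range, 3.75% of 267.

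Nr3c1, the glucocorticoid receptor gene, lies on the minus strand of chromosome 18 (39410545 to 39519421, GRCm38). In replicates 1 to 5 its levels were 145, 143, 164, 155 and 158 CPM in female controls and 146, 151, 143, 152 and 143 CPM in stressed females. They were 159, 146, 149, 158 and 150.1 CPM in male controls and 156, 165, 145, 160.4 and 164 CPM in stressed males. Of the stressed females 2 lie just below every female control. Of the stressed males 3 lie above every male control and 1, at 145 CPM, below them all, and 4 lie above every stressed female. With stress the estimate was -3.94% in females (95% interval -10.3% to 2.83%, adjusted p 0.804) and 3.69% in males (-3.06% to 10.9%, adjusted p 0.651). On the log2 scale the female estimate moved from -0.06 to -0.03 without female control 3, and the male one from 0.05 to 0.08 without male stressed 3. The difference between these estimates, the interaction, was 0.11 on the log2 scale (SE 0.07, adjusted p 0.573). Averaged over the sexes the estimate was -0.195%, with an interval from -4.86% to 4.70%. Male minus female, Nr3c1 differed by 7.70% among stressed mice (interval 0.706% to 15.2%, unadjusted p 0.0319, adjusted p 0.672) and by -0.229% among controls (adjusted p 0.992).

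Nr3c2, the mineralocorticoid receptor gene, lies on the plus strand of chromosome 8 (76899442 to 77245012), where an exon overlaps the opposite-strand noncoding gene Gm10649. It reached 60.1, 59.6, 56.4, 49.7 and 59.96 CPM in female controls and 52.9, 50.7, 54.4, 58.7 and 66.1 CPM in stressed females. In males the values were 56.4, 55.97, 59.02, 57.6 and 57.5 CPM in controls and 60.4, 61.2, 59.7, 59.3 and 57.2 CPM with stress. Female values spread widely, with an SD of 4.44 CPM in controls and 6.10 CPM with stress, against 1.20 and 1.49 CPM in the male groups. The lowest female control, 49.7 CPM, is the shallowest library of the series, with 132 counts of Nr3c2. The test used a common estimate of spread for all groups, so the wider female spread also enters the interval for males. In males 4 of 5 stressed libraries exceeded every control, yet the estimate was only 3.85% (interval -4.81% to 13.3%, adjusted p 0.742). In females it was -1.94% (interval -10.3% to 7.15%, adjusted p 0.964), and it changed sign, to 0.01 on the log2 scale, without female stressed 2. Sex differences were -0.899% in controls and 4.96% in stressed mice, male minus female (adjusted p 0.967 and 0.857).

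The balance of the receptors is often expressed as a ratio, since they bind the same hormone at different concentrations. Per kilobase of exon, Nr3c1 exceeded Nr3c2 by a factor of 2.24 on average, and by 1.82 to 2.63 in single libraries. Group means of this ratio were 2.27 ± 0.264 in female controls, 2.21 ± 0.253 in stressed females, 2.24 ± 0.101 in male controls and 2.24 ± 0.136 in stressed males (SD, n = 5). The group means lie within 1 SD of each other. Across the 20 libraries the log2 levels of the receptors showed little relation, with r -0.0366 and rho -0.0421.

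**Figure D2:**
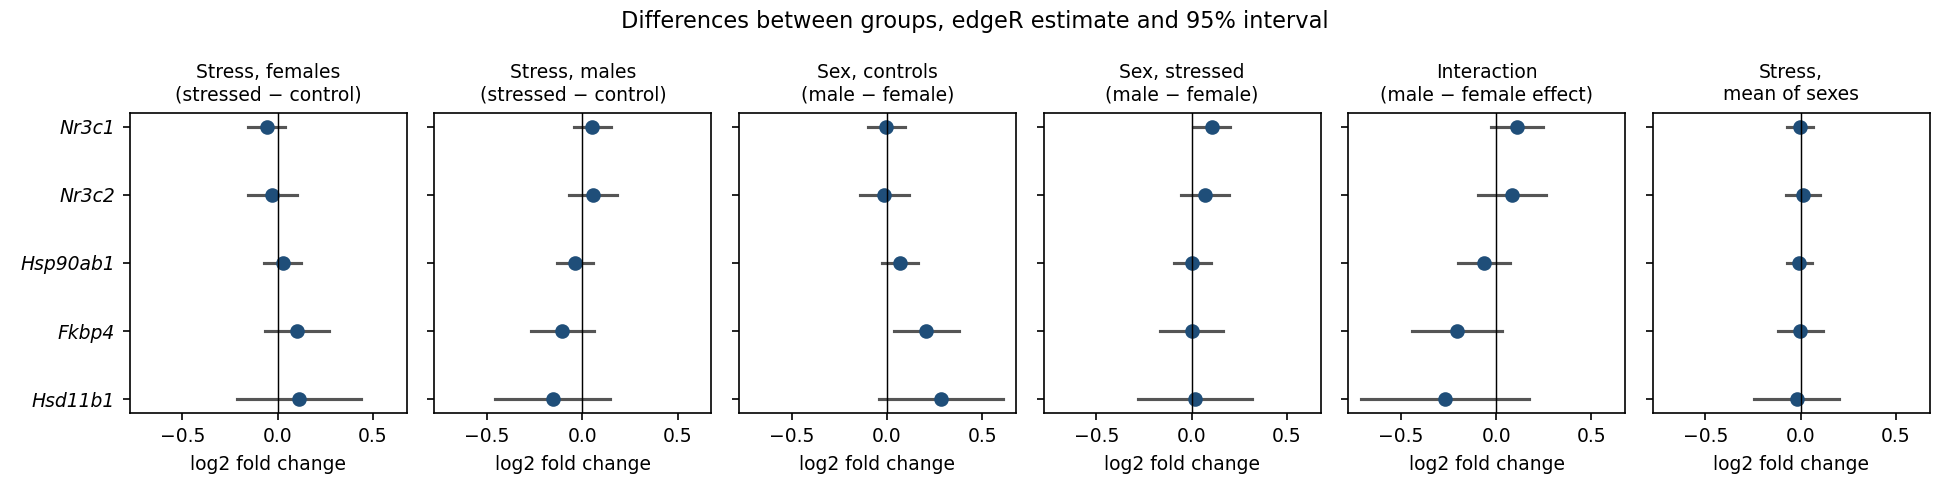
Each dot is the edgeR log2 fold change of a gene and each line its 95% interval, not adjusted for the number of genes, in the 6 comparisons. The lines of Nr3c1, Nr3c2 and Hsp90ab1 are short and those of Hsd11b1 long; only Fkbp4 for sex in controls and Nr3c1 for sex in stressed mice have intervals on 1 side of 0.

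Hsp90ab1, on the minus strand of chromosome 17 (45567775 to 45573271), was the most abundant member. Its levels were 1704, 1608, 1646, 1664 and 1777 CPM in female controls and 1692, 1709.8, 1754, 1741 and 1652 CPM in stressed females. Male controls had 1713, 1784, 1692, 1792 and 1828 CPM, and stressed males 1773, 1775, 1623, 1785 and 1621 CPM. Of the stressed males 2 lie below every male control and the other 3 inside the control range, while 3 male controls lie above every female library. The estimate with stress was 1.76% in females (interval -4.79% to 8.77%, adjusted p 0.951) and -2.65% in males (-8.91% to 4.04%, adjusted p 0.772). Leaving out 1 library moved these to between 0.00972 and 0.0463 in females (without female control 2 and 5) and to between -0.0536 and -0.0190 in males (the latter without male stressed 5), on the log2 scale. Male controls exceeded female controls by 4.88% (interval -1.88% to 12.1%, adjusted p 0.513). Its stress-inducible relative Hsp90aa1 had a mean of 857 ± 73.6 CPM among female controls and of 920.3 ± 25.1 CPM among male ones (n = 5, adjusted p 0.460). Reads that fit both HSP90 genes could be split between them, and how the authors' counting treated such reads is not given in the sources used here.

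Fkbp4, on the minus strand of chromosome 6 (128429735 to 128438677), was the member with the smallest adjusted p in any comparison. In female controls it stood at 107, 117, 108, 123 and 110.5 CPM, and in stressed females at 121, 140.4, 119, 121 and 102 CPM. Male controls gave 123, 137, 120, 127 and 143 CPM, and stressed males 123, 120, 110.1, 145 and 107 CPM. Of the male controls 3 lie above every female control, and the remaining 2 lie inside the upper end of the female range. Male controls exceeded female controls by 15.4% (log2 fold change 0.21, SE 0.08, unadjusted p 0.0190, adjusted p 0.226), with an interval from 2.62% to 29.8%. With stress the estimate was 7.22% in females (interval -4.63% to 20.6%, adjusted p 0.803) and -6.98% in males (-17.1% to 4.38%, adjusted p 0.577). Female stressed 2 holds the highest female value, and without it the female estimate was 0.04 on the log2 scale instead of 0.10, and 0.16 without female stressed 5. The male estimate of -0.10 became -0.18 without male stressed 4 (adjusted p 0.231) and -0.06 without male stressed 5 or male control 5. In stressed mice the sexes differed by 0.133% (interval -10.7% to 12.3%). The interaction was -0.20 (SE 0.11, adjusted p 0.537).

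Markers of striatal neurons moved with the sex comparison of controls and with stress in males. All 14 striatal marker genes had lower estimates in male than in female controls (0 called, 13 at an unadjusted p under 0.05), and their summed level ran from 2109.7 to 2655 CPM in male controls against 2313 to 4222 CPM in female ones. With stress in males all 14 had higher estimates (edgeR, 0 called, 14 at an unadjusted p under 0.05). Their summed level in stressed males, 3020 to 4757 CPM, did not overlap that in male controls. Over all genes the shares at that level of p were 15.3% for sex in controls and 15.5% for stress in males. The striatal score also related to Fkbp4 across the 20 libraries, with r -0.539 and rho -0.537. With that score as a covariate, the sex difference of Fkbp4 in controls was 0.10 (adjusted p 0.672), that of Hsd11b1 moved from 0.28 to 0.06, and that of Hsp90ab1 was 0.07 in either fit. The same covariate turned the male stress estimate of Fkbp4 from -0.10 to 0.01, that of Hsd11b1 from -0.16 to 0.10 and that of Nr3c2 from 0.05 to -0.05. For the glucocorticoid receptor gene Nr3c1 the male stress estimate was 0.05 without and 0.11 with it. None of these values passed the test. Other markers moved with the sex comparison of controls as well. The score of GABAergic and bed nucleus neurons ran from -0.117 to 0.0201 in female and from 0.0510 to 0.121 in male controls, without overlap. The summed level of these markers did overlap, at 3147 to 3357 CPM in female and 3116 to 3295 CPM in male controls. Of the 15 genes 10 had higher and 5 lower estimates in males (1 called, Tac2). The score of endothelial and mural cells ran from 0.00834 to 0.177 and from -0.237 to -0.00776, also without overlap. All 11 of its measured genes had lower estimates in males (1 called, Cldn5). The microglial score averaged 0.0915 and -0.0887 and overlapped. Fkbp4 related to these scores with r 0.563, -0.501 and -0.154, and their part in its values was not tested.

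Library by library, several chaperone genes moved together. Hsp90ab1 and Fkbp4 correlated in log2 CPM with r 0.639 and rho 0.695 over 20 libraries, r 0.518 without the 2 libraries farthest from the median of Fkbp4, and r 0.536 after subtracting group means. Hsp90ab1 was closest to Hspa8, the constitutive HSC70 that loads the receptor onto the HSP90 machinery, with r 0.897, and r 0.878 within groups. Stip1, which encodes HOP, the adaptor between the HSP70 and HSP90 chaperones, related to Hsp90ab1 with r 0.750 and to Fkbp4 with r 0.740. Dnajb1, an HSP40 co-chaperone induced by heat shock, related to Fkbp4 with r 0.667. The p23 gene Ptges3 related less closely to both, with r 0.292 for Hsp90ab1 and 0.388 for Fkbp4 (0.0437 and 0.163 within groups). The opposing co-chaperone gene Fkbp5 showed little relation to Fkbp4, with r 0.147. Points of these relations share a library, its pooled animals and its makeup, and the correlations are given as descriptions. For the receptor gene Nr3c1 r was 0.185 with Hsp90ab1 and 0.0636 with Fkbp4, and for Nr3c2 it was 0.0272 and -0.417. The score of the 15 GABAergic and bed nucleus markers also moved with the chaperones, with r 0.610 for Hsp90ab1 and 0.563 for Fkbp4, and its part in these relations was not tested. Summed, those markers spanned 2956 to 3444 CPM over the 20 libraries.

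**Figure D3:**
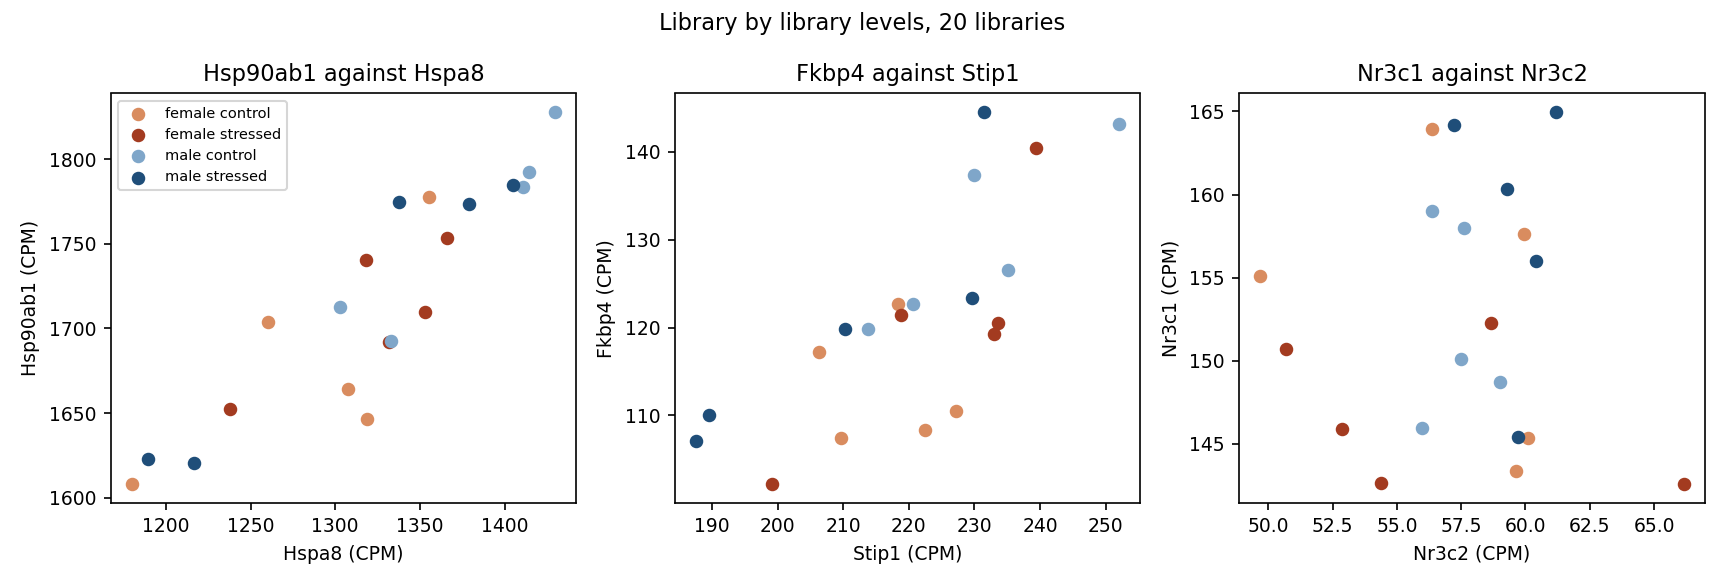
Each point is 1 of 20 libraries coloured by group, with CPM on both axes, which do not start at 0. Hsp90ab1 climbs with Hspa8 (r 0.897 in log2 CPM) and Fkbp4 with Stip1 (r 0.740), with libraries of all 4 groups along the line, while Nr3c1 against Nr3c2 forms a cloud (r -0.0366).

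Because Fkbp4 varied with heat shock chaperones, the 250 bases before the annotated starts were searched for the inverted heat shock unit GAANNTTC or TTCNNGAA and for ACANNNTGT, the core of the element that both corticosteroid receptors bind. Each motif reads the same on the opposite strand, so a match counts for both strands, and the heat shock forms can overlap each other. Among 32851 RefSeq windows (GRCm38.p6), 6.69% held GAANNTTC, 7.17% TTCNNGAA and 5.84% ACANNNTGT. RefSeq windows were matched for 3 of the 5 members, Fkbp4, Nr3c2 and Hsd11b1. Fkbp4 and Nr3c2 held 1 heat shock match each, both GAANNTTC, beginning 151 bases before the start; Hsd11b1 held 0, and none of the 3 held the receptor core. The 30 bases around each match are printed 5′ to 3′ on the gene's own strand, with the match in capitals.
Fkbp4, chr6:128438789-128438818, minus strand: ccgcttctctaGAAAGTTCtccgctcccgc
Nr3c2, chr8:76902168-76902197, plus strand: gacagcgacctGAACTTTCtggacatgtga
A match describes letters only. The matching letters stand before a gene that correlated with Stip1 across libraries (Fkbp4, r 0.740) and before one with an inverse relation to it (Nr3c2, r -0.426). All 3 windows belong to RefSeq starts inside the genes as GENCODE bounds them. Those of Nr3c2 and Hsd11b1 lie wholly inside. That of Fkbp4 (128438657 to 128438906) runs past the 5′ end of the gene at 128438677. The windows of the chaperone genes Dnajb1, Stip1 and Ptges3 held 0 heat shock matches.

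The wider chaperone cycle of the receptor was followed with a list of 25 genes, all measured. In control mice 3 of 25 were called, all higher in males, against 0.747% of all genes. In each of the other 5 comparisons edgeR called 0 of 25. At an unadjusted p under 0.05 those 5 gave 2 (female stress), 6 (male stress), 4 (sex in stressed mice), 5 (interaction) and 4 (averaged stress). For sex in controls 7 of 25 were higher and 1 lower in males at that level. Over all genes the shares at that level were 7.51% for female stress, 15.5% for male stress, 15.3% for sex in controls, 7.06% for sex in stressed mice, 10.4% for the interaction and 12.7% for averaged stress. The 2 of 25 for female stress are near the share of all genes, and the other counts lie above theirs. The 3 were the inducible HSP70 genes Hspa1a and Hspa1b and the HSP40 gene Dnajb1. In female controls Dnajb1 averaged 47.1 ± 2.67 CPM, and in male controls 70.7 ± 8.41 CPM (n = 5), with no overlap (log2 fold change 0.58, SE 0.09, adjusted p 0.00269). Hspa1a averaged 2.38 ± 0.201 and 5.64 ± 1.09 CPM (1.24, SE 0.22, adjusted p 0.00666) and Hspa1b 1.84 ± 0.749 and 5.61 ± 1.77 CPM (1.45, SE 0.30, adjusted p 0.0265). Hspa1a and Hspa1b are near-identical copies, so their separate values are uncertain. With the striatal covariate their adjusted p was 0.0566 and 0.0897, and Hspa1b also missed the threshold without female control 2 or 5 or male control 2 or 5 (0.0554 to 0.0590). The list's median log2 fold change in that comparison was 0.06, against 0.0002 for all genes tested. Its median was 0.02 with stress in females (15 of 25 above 0) and -0.08 in males (6 of 25 above 0), beside -0.001 and -0.01 for all genes.

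Other partners with fixed places in the cycle did not pass in controls. Ptges3, which encodes the p23 protein that stabilises the hormone-binding form of the complex, had means of 111 ± 10.6 (female) and 129 ± 5.35 CPM (male) (adjusted p 0.192). Stip1 averaged 217 ± 8.76 and 230.3 ± 14.7 CPM (adjusted p 0.548). Fkbp5, whose transcription the receptor itself induces, averaged 36.98 ± 4.59 CPM in female controls, 40.1 ± 3.84 in stressed females, 44.8 ± 8.18 in male controls and 47.6 ± 3.52 in stressed males. It had an adjusted p of 0.170 for sex in controls, and passed with the striatal score as a covariate (0.48, adjusted p 0.0257). Per kilobase, Fkbp4 exceeded Fkbp5 by a factor of 10.5 ± 1.29 in female controls, 10.4 ± 2.13 in stressed females, 10.04 ± 1.77 in male controls and 8.65 ± 1.33 in stressed males (SD, n = 5), and these ratios overlapped between groups.

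Hsd11b1, on the minus strand of chromosome 1 (193221634 to 193264075), was near the bottom of the measured range. Its levels were 2.54, 3.15, 2.89, 3.01 and 2.42 CPM in female controls and 3.24, 3.75, 3.21, 2.31 and 2.54 CPM in stressed females. Male controls had 3.73, 2.69, 4.48, 3.07 and 3.31 CPM, and stressed males 3.19, 3.79, 2.96, 2.83 and 2.83 CPM. Of the male controls 3 exceed every female control. These values rest on 8 to 108 counts per library. In female control 4 the 8 counts carry an exact 95% Poisson interval from 1.30 to 5.93 CPM, wider than the range of all 20 libraries, and in female stressed 2 the 108 counts give 3.07 to 4.52 CPM (counting error only). Male controls exceeded female controls by 21.8% with an interval from -2.81% to 52.7% (adjusted p 0.406). With stress the estimate was 8.06% in females (-13.7% to 35.3%, adjusted p 0.918) and -10.3% in males (-27.2% to 10.6%, adjusted p 0.670). Without female stressed 2 the female estimate was -0.02 on the log2 scale in place of 0.11. Without male control 3 the male estimate was -0.09 in place of -0.16. In each comparison the interval of Hsd11b1 was the widest of the 5 genes.

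Across libraries the level of Hsd11b1 related to the striatal score with r -0.624 and rho -0.647, the largest r in size between a member and any marker score. Without the 2 libraries farthest from the median of Hsd11b1, r was -0.529. Trimmed in the same way, r of Hsp90ab1 with the score of GABAergic and bed nucleus neurons was larger, at 0.653. H6pd, which encodes the enzyme that supplies NADPH to 11-beta-hydroxysteroid dehydrogenase type 1, averaged 8.09 ± 1.05 CPM in female controls, 8.77 ± 0.875 in stressed females, 7.32 ± 1.31 in male controls and 8.01 ± 0.828 in stressed males. The opposing enzyme gene Hsd11b2 was not analysed here. Of 18 listed genes of corticosteroid metabolism and transport, 9 were measured and 0 were called in any of the 6 comparisons (edgeR). At an unadjusted p under 0.05 the counts in the order above were 0, 3, 2, 0, 0 and 1. Over all genes the shares were 7.51%, 15.5%, 15.3%, 7.06%, 10.4% and 12.7%. The 1 of 9 for averaged stress is near its share, the 3 and 2 of 9 lie above theirs, and the counts of 0 lie below. The measured genes include Abcb1a, the drug exporter of brain capillaries that also carries corticosteroids, which differed by -0.24 for sex in controls and by 0.23 with stress in males.

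None of the listed genes that carry the receptor or modify its action passed the test either. Among 22 genes of nuclear transport and receptor coregulation edgeR called 0 in the 6 comparisons, and among 7 measured genes of related steroid receptors 0 were called. At an unadjusted p under 0.05, the transport and coregulator counts were 3, 5, 2, 3, 3 and 6, and those of related receptors 0, 0, 1, 1, 0 and 1. The shares of all genes were 7.51%, 15.5%, 15.3%, 7.06%, 10.4% and 12.7% in the same order. For sex in controls the 2 of 22 transport and coregulator genes lie below the share. In every other comparison the transport and coregulator count lies above it. The difference from these shares was not tested.

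Some target genes of the receptors did pass the test. Of 21 measured genes on a list of glucocorticoid-induced genes, 5 were called for sex in controls, all higher in males, and 1 for stress in males, which was lower with stress. Over all genes 0.747% and 0.0077% were called in these comparisons. At an unadjusted p under 0.05, 12 of 21 were higher in males for sex in controls and 9 of 21 lower for stress in males. The shares of all genes at that level were 15.3% and 15.5%. In the other 4 comparisons edgeR called 0 of 21, with 6 at an unadjusted p under 0.05 for stress in females, 5 for sex in stressed mice, 10 for the interaction and 3 for averaged stress. The shares of all genes in those 4 were 7.51%, 7.06%, 10.4% and 12.7%. The 3 of 21 for averaged stress are near the last, and the other counts lie above their shares. The list was drawn up with earlier results of these data known, so its direction is not independent evidence. For sex in controls the 5 were Sgk1, Tsc22d3, Arrdc2, Bcl6 and Ddit4, with log2 fold changes of 1.06, 0.64, 0.64, 0.45 and 0.48. Ddit4, an inhibitor of mTOR signalling, had means of 23.7 ± 0.941 (female controls) and 32.9 ± 6.30 CPM (male controls) (adjusted p 0.0270, but 0.0681 with the striatal covariate and 0.0572 to 0.0930 without female control 1 or 5 or male control 2 or 3). Bcl6, a transcriptional repressor, averaged 28.98 ± 2.48 and 40.1 ± 2.31 CPM (adjusted p 0.00609). The gene called for stress in males was Arrdc2, at -0.71 (adjusted p 0.00851), but its adjusted p was 0.110 with the striatal covariate, 0.0618 without male stressed 3 and 0.0656 without male stressed 4. DESeq2 gave no adjusted p for it there. For sex in controls Nr3c1 differed by -0.003 and Nr3c2 by -0.01 on the log2 scale.

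**Figure D4:**
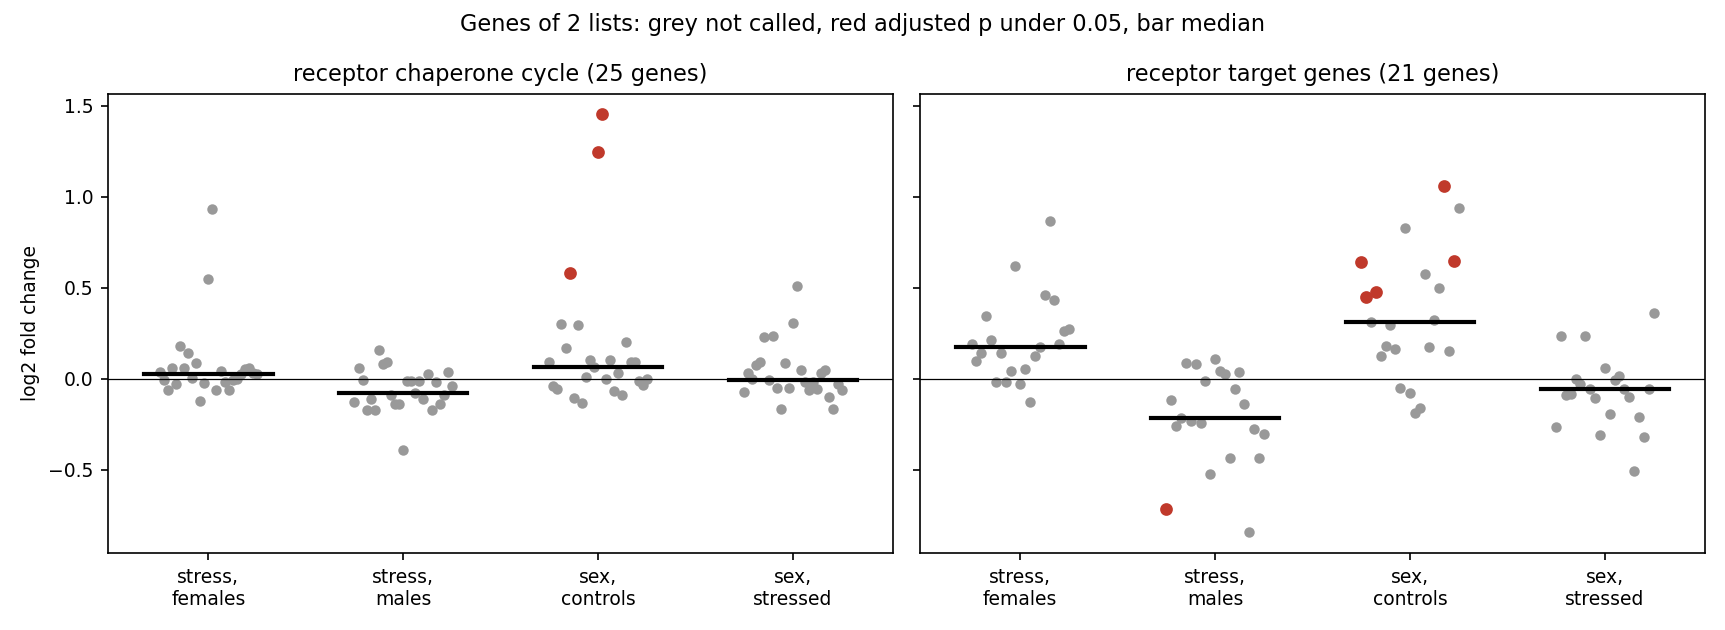
Each point is 1 gene, placed by its log2 fold change in 4 comparisons, for the chaperone cycle (25 genes) and the receptor targets (21 genes); red points were called and bars are medians. Called genes number 3 and 5 for sex in controls and 0 and 1 for stress in males, and the target medians are 0.17, -0.22, 0.31 and -0.06 from left to right.

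Outside the chaperones, the genes most like each member over the 20 libraries had varied roles. Nr3c1 was close to the RNA helicase gene Ddx52 (r 0.810) and to Qk, an RNA-binding regulator of myelination (r 0.796). Nr3c1 also related to the oligodendrocyte score with r 0.577 and rho 0.594, and with that score as a covariate its female stress estimate was -0.01 in place of -0.06. All 14 oligodendrocyte markers had lower estimates in stressed than in control females (0 called, 8 at an unadjusted p under 0.05), with summed levels from 8785 to 10783 CPM and from 9324 to 13463 CPM. Over all genes 7.51% were at that level of p. The part of these markers in the values of Nr3c1 was not tested. Nr3c2 was closest to the kinase gene Nlk (r 0.784), Nkain3 (r 0.782) and E130311K13Rik (r 0.778). Fkbp4 was closest to Atic, a gene of purine synthesis (r 0.886), B3gat3 (r 0.841) and Mtfp1 (r 0.821). Hsp90ab1 was followed after Hspa8 by Cct2, a subunit of the cytosolic chaperonin (r 0.754), and Stip1 (r 0.750). Hsd11b1 was closest to Cpeb3 (r 0.756), Zfp90 (r 0.714) and Pgm2 (r 0.706). These neighbours depended on the measure. Of the 3, Spearman's rho kept 0 for Hsd11b1, 0 for Nr3c2 and 1 for Fkbp4, and subtracting group means kept 0, 1 and 1, and 1 for Hsp90ab1.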

How the data were processed

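The authors deposited whole-number counts per gene symbol, 1 column per library, with no normalization. STAR, featureCounts and the build mm10 are named in the submitters' processing notes without roles, versions or settings. Per the labels' protocols the kit keeps strand; whether counting used strand is not given in the sources used here. The lowest row total was 1002, a filter that no source states; 0 columns were left unassigned.

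Differences were tested in edgeR 4.0.16 (R 4.3.3): TMM, filterByExpr (which kept all 12988 genes), 1 mean per group over 20 libraries, and the quasi-likelihood test. The threshold was a Benjamini-Hochberg adjusted p of 0.05. SE is the log2 fold change over the root of F. Log2 CPM used a prior count of 2. On simulated counts for stress in females over 12988 genes, edgeR called 87 of 100 genes changed 1.5-fold, 100 of 100 changed 2-fold and 12 of 12788 unchanged genes. Genes were simulated independently of each other, without differences in tissue makeup between libraries. Changes under 1.5-fold, the size of all member estimates, were not simulated.

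Members and lists were chosen with earlier results of these data known. Genes named are the members, called genes of 5 pathway lists, Fkbp5, Hsp90aa1, Ptges3, Stip1, Hsd11b2, H6pd, and the 3 genes of highest Pearson r with each member; the motifs and any other genes named, such as Hspa8 as a partner of Fkbp4 and Abcb1a, were chosen after values were seen. Results for some genes that this rule names are not reported here. Exon lengths and positions are from GENCODE M21 (GRCm38, the same assembly as mm10). Alternatives were DESeq2 1.42.0, its size factors in edgeR, other filters, fewer groups, a replicate block, 2 marker covariates and each library left out.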

Additional observations from a re-analysis of the deposited data

How the results depend on the processing

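None of the 5 genes was called under any alternative or with any library left out. Of 224 recomputed fold changes of members 21 changed sign, as did 46 of 600 with a library left out, and Hsd11b1 has no value at a mean of at least 10 CPM because that filter removes it. For stress in males, the log2 fold change with the striatal covariate was -0.0545 for Nr3c2, 0.0122 for Fkbp4 and 0.102 for Hsd11b1. With it Nr3c2 gave 0.0799 among controls (male minus female) and -0.0201 for the interaction. Averaged stress then gave 0.0269 for Nr3c1, -0.0445 for Nr3c2, 0.0540 for Fkbp4 and 0.102 for Hsd11b1. With the oligodendrocyte covariate, averaged stress gave 0.0258 for Nr3c1, -0.00470 for Nr3c2, 0.0263 for Fkbp4 and 0.00869 for Hsp90ab1, and the sex difference of Nr3c1 in controls was 0.0284 (0.000668 with DESeq2). For sex in stressed mice Fkbp4 was -0.00122 with DESeq2 size factors, -0.00106 with DESeq2, -0.00588 at 10 CPM and -0.00601 with the oligodendrocyte covariate, and Hsp90ab1 was -0.00280 and -0.00156 in the last 2. The cause was not tested.

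With each library left out in turn, stress in females ranged from -0.0951 to 0.0125 for Nr3c2 and from -0.0184 to 0.193 for Hsd11b1. Sex in controls ranged from -0.0275 to 0.0251 for Nr3c1 and from -0.0426 to 0.00429 for Nr3c2. Sex in stressed mice ranged from -0.0742 to 0.0649 for Fkbp4, from -0.0101 to 0.0245 for Hsp90ab1 and from -0.0635 to 0.146 for Hsd11b1. Averaged stress ranged from -0.0149 to 0.0121 for Nr3c1, from -0.0203 to 0.0335 for Nr3c2, from -0.0399 to 0.0266 for Fkbp4, from -0.0145 to 0.00376 for Hsp90ab1 and from -0.0875 to 0.0184 for Hsd11b1.

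Over all genes the number called moved more. DESeq2 called 1 gene for stress in females, 239 for male stress, 248 for sex among controls, 22 for the interaction and 13 for averaged stress, against 0, 1, 97, 0 and 0 with edgeR. Its size factors in edgeR gave 3 for the interaction and 5 for averaged stress, and the 10 CPM filter gave 3 for the interaction. With only the groups compared in the fit, 303 were called for stress in males and 304 for sex in controls. The striatal covariate gave 1 for stress in females and 1 for the interaction, and the oligodendrocyte covariate 3 for male stress, 278 for sex among controls and 7 for the interaction. With a library left out, stress in males ranged from 0 (without male stressed 3 or 4) to 232 (without female stressed 2), sex in controls from 32 (leaving out female control 5) to 214 (leaving out female control 3), the interaction from 0 to 4 and averaged stress from 0 to 150 (without female stressed 2).

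With a replicate block 48 genes were called for sex in controls and 0 members in any comparison, and for sex in controls Hspa1b and Ddit4 had adjusted p 0.0738 and 0.0569 (edgeR). Of 30 pairs of libraries with the same number 5 had deviations correlated above 0.1, and 0 of 20 libraries correlated best with its own number. These correlations gave no sign that the numbers pair the libraries, and a batch shared by equal numbers was not tested. Hsd11b1 had the fewest counts of the 5 genes, 8 to 108 per library.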

Other observations

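The balance of the HSP90 genes is a value the comparisons above do not hold. Hsp90ab1 exceeded Hsp90aa1 in CPM by a factor of 1.97 ± 0.141 in female controls, 2.18 ± 0.123 in stressed females, 1.91 ± 0.0565 in male controls and 2.06 ± 0.117 in stressed males (SD, n = 5). Single libraries ran from 1.79 to 2.14 in female controls and from 2.03 to 2.32 in stressed females. They ran from 1.86 to 1.99 in male controls and from 1.89 to 2.19 in stressed males. Groups that differ only in stress or only in sex overlapped. Stressed females and male controls, which differ in both, did not. How often gene pairs separate in this way was not computed. Reads that fit both HSP90 genes could also enter this ratio. The ratio was not tested.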
